A study of Mus musculus with 8 samples.

Results

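Constitutive open gene ends are stretches of open chromatin that lay at an end of a protein-coding gene and were found in cultured mouse cortical neurons under all 4 conditions of the study. Peaks of the 4 deposited lists on chromosomes 1 to 19 were merged where they overlapped by at least 1 bp, which gave 60611 regions. Of these, 7043 (11.6%) had a peak in every list, and the 5338 that also lay within 1 kb of an annotated end of a protein-coding gene (RefSeq, GRCm38) are the members described here. They are 8.81% of all regions and 75.8% of the regions found in every list. The members were chosen by the presence of a peak, so their detection and the height of their peaks are given as a description without a test.

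ATAC-seq, which cuts accessible DNA with the Tn5 transposase, was applied to primary neurons from the cortex of E16.5 embryos. The 4 conditions had 2 libraries each: Brg1 WT neurons and Brg1-cko neurons (BAF53bCre Brg1F/F, called cKO here), each without KCl (basal) and with 50 mM KCl for 1 h, which depolarises the membrane. The BAF53b promoter drives Cre in neurons only after they leave the cell cycle, and the labels give no further allele for the WT cultures. For depolarisation the labels name 1 µM TTX and 100 µM APV on day 5 in vitro and KCl on day 6, and they do not state whether basal cultures received the blockers. The deposited files hold a single list of peaks for a condition, from fragments shorter than a nucleosome's DNA, so each value stands for 1 list, the spread between libraries is not known, and no test compares conditions.

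RNA polymerase II starts transcription at promoters, and in active or poised genes a nucleosome-depleted stretch lies there that Tn5 can cut. Most promoters of widely expressed genes lie in CpG islands, which are rich in unmethylated CG dinucleotides, hold sites of factors such as Nrf1, Sp1, NF-Y and the ETS family and often lack a TATA box. Brg1 (Smarca4) is an ATPase of the BAF complexes, which slide or evict nucleosomes, and KCl opens voltage-gated calcium channels and induces the rapid response genes such as Fos.

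Promoter windows from RefSeq (GRCm38.p6), 250 bases before to 50 bases after the annotated start, were matched for 16457 of 20665 protein-coding genes, 4913 of them with a member within 1 kb of the start. The others were not analysed here. Each window was searched on both strands for 15 short motifs, and every share of all windows that hold a motif is given in the paragraphs on motifs. A match is a description of letters and not a bound site. The first 4 windows below belong to the members with the highest folds among those holding an NRF1 (GCGCANGCG), CRE (TGACGTCA), GC box (GGGGCGGGG) or ETS (CCGGAAGT) match. Capitals mark every match to the 15 motifs, 5′ to 3′ along the gene, and positions count from the start base as 0 to the leftmost base of a match. A match on the other strand appears as its reverse complement.
Erp44 (chr4:48279586-48279885, minus strand): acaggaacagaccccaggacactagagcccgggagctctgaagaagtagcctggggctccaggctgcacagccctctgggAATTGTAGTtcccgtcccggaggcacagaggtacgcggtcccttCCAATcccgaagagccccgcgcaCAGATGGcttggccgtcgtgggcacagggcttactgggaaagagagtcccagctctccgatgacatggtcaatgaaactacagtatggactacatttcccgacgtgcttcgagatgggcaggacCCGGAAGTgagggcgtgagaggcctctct
Sugct (chr13:17694716-17695015, minus strand): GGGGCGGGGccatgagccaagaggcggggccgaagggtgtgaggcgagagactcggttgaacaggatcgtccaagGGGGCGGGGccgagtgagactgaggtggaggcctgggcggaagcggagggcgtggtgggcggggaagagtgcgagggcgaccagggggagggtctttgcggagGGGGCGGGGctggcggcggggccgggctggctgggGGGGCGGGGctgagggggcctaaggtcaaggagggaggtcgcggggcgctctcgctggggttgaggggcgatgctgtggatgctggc
Ints3 (chr3:90433587-90433886, minus strand): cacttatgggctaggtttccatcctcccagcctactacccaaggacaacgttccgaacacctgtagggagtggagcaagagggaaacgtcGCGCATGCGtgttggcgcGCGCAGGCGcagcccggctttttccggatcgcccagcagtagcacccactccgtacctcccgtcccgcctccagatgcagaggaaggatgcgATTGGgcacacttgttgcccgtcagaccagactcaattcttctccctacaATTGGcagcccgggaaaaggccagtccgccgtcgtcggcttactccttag
Gpbp1 (chr13:111490078-111490377, minus strand): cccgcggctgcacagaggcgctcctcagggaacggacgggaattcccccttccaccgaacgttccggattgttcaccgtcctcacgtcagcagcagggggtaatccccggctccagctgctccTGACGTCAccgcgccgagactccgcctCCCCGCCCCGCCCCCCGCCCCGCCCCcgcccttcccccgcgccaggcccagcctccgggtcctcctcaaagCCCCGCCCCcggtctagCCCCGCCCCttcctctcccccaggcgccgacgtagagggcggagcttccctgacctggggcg

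Erp44, which retains proteins in the early secretory pathway, had an ETS match at 21, a CCAAT box (CCAAT) at -126, a ZNF143 match (ACTACAATT) at -170 and a NeuroD E-box (CAGATGG) at -103. Sugct, a mitochondrial CoA transferase gene, held 4 GC boxes between -250 and -37. Ints3, a subunit gene of the Integrator complex, held NRF1 matches at -160 and -142 and CCAAT boxes at -50 and 0. Gpbp1, a GC-rich promoter binding protein gene, had a full CRE at -127 and 6 GC box matches, some of which share bases.

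The next 4 windows belong to rapid response genes with a member, shown because these genes are induced by depolarisation while their starts carried a peak in every list.
Jun (chr4:95052173-95052472, minus strand): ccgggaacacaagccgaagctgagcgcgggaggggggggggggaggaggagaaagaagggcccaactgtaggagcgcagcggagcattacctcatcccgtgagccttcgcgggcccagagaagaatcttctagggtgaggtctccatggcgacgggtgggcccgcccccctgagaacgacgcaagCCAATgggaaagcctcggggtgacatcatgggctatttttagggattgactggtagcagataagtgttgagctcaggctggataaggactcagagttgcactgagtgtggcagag
Btg2 (chr1:134079106-134079405, minus strand): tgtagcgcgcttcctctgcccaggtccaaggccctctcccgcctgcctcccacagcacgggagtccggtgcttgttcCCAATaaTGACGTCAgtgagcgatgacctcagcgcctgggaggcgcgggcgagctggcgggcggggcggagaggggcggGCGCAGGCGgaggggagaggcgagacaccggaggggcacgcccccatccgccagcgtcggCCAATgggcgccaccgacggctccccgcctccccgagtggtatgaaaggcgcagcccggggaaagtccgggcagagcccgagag
Dusp1 (chr17:26508423-26508722, minus strand): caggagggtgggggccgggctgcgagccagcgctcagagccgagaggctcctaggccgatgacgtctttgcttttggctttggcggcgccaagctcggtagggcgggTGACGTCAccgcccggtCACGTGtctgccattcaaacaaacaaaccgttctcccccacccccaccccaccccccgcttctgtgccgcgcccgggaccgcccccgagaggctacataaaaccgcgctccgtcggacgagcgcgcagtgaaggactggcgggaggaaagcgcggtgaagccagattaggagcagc
Fos (chr12:85473640-85473939, plus strand): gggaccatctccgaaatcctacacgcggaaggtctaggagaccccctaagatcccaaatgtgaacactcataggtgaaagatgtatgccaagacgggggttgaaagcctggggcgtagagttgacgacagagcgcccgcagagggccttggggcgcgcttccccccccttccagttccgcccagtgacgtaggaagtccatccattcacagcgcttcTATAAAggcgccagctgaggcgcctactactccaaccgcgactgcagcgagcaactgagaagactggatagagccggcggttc

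Btg2, an antiproliferative gene, held a CRE at -166, an NRF1 match at -94 and CCAAT boxes at -173 and -34. Dusp1, a phosphatase gene that switches off MAP kinases, held a CRE at -143 and a palindromic E-box (CACGTG) at -126. Jun, an AP-1 subunit gene, had a CCAAT box at -65, and Fos, its partner, had a TATA box (TATAAA) at -33. CpG observed/expected, the number of CG dinucleotides relative to that from the C and G content, was 0.59 in Jun, 0.83 in Btg2, 0.92 in Dusp1 and 0.77 in Fos.

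Where the strand was known for all genes at a member (4317 members), 4294 lay at a gene start (99.5%, exact 95% Clopper-Pearson interval 99.2 to 99.7). All intervals given here are of this kind and cover counting error only. Far ends alone accounted for 23 members (0.533%, 0.338 to 0.798), and the rule admitted both ends alike. Among gene-end regions found in 1 list, 926 of 3574 (25.9%) lay at a far end only, against 147 of 1510 (9.74%) in 2 lists and 44 of 1389 (3.17%) in 3 lists. The share at far ends was thus lower at each step in the number of lists. A strand was not given for a gene at 1021 members.

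The far-end members included Lars2, the mitochondrial leucyl-tRNA synthetase gene (chr9:123461875-123462188), with folds of 6.79 and 5.93 in WT (basal, then KCl) and of 7.02 and 7.9 in cKO (basal, then KCl). A fold is the authors' own value for a peak, the fragment pileup at its summit over the local background, and is read within its list. Bcat2, a branched-chain aminotransferase gene, had 4.68, 3.67, 4.82 and 5.12 in the same order of lists, which is kept below. Neurod6, a transcription factor gene of excitatory cortical neurons, had 2.91, 2.8, 3.25 and 3.21 at its far end. Of the 23, 3 lay within 1 kb of the start of another RefSeq gene of any type.

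Summits lay close around the annotated start. For the 3581 members at the start of a single gene, the median summit lay 6, 10, 17 and 13 bp after the start. Between 49.0% (cKO basal) and 50.4% (WT basal) of summits were within 100 bp of the start, and 73.2 to 74.2% were within 250 bp. Summits before the start made up 47.8, 47.0, 44.4 and 45.9%. The plot of summit positions shows the 4 lists on top of each other, with a longer tail after the start than before it. The merged region reached a median of 238 bp before the start (quartiles 124 and 360) and 471 bp after it (301 and 703).

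**Figure D1:**
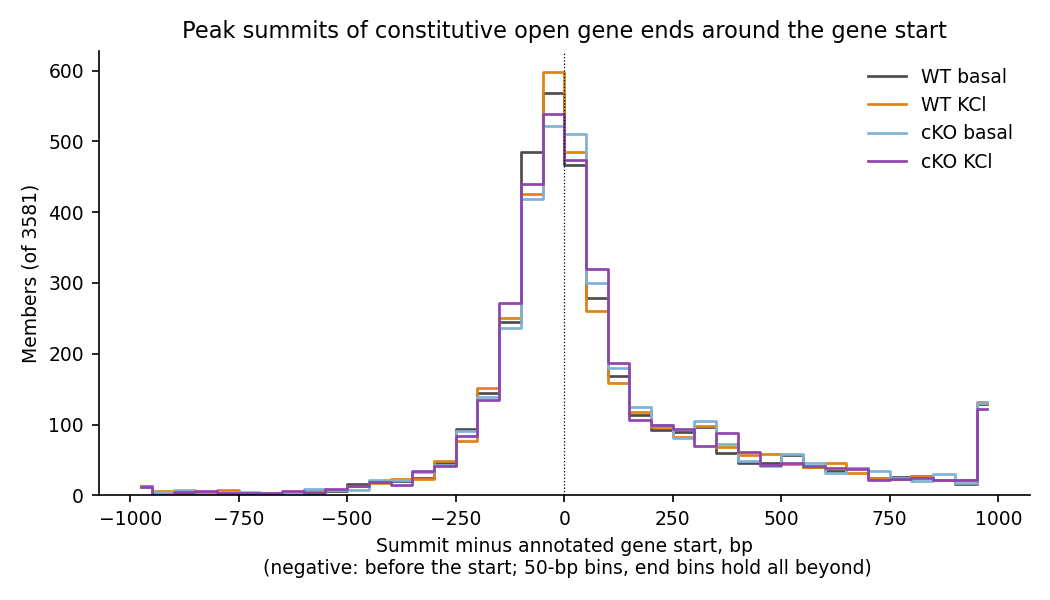
Summit positions of 3581 members relative to the annotated gene start in bp (x axis, 50-bp bins, negative before the start, end bins hold all summits beyond) against the number of members (y axis), 1 line per list. All 4 lines are highest in the 50 bp before the start, and with the longer tail on the right their medians lie 6 to 17 bp after it.

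The annotated gene end lay inside the region for 4513 members (84.5%), at 1 to 100 bp outside for 181 (3.39%) and farther out for 644 (12.1%). At the 1 kb limit itself few regions were near. The last 100 bp inside it held 28 members, and 35 regions found in every list lay in the first 100 bp beyond it. Just inside were regions near Mrgprf (997 bp, folds 2.78, 2.73, 2.64 and 3.04) and Tpbg (993 bp, 2.93, 3.4, 3.43 and 2.68). Just outside were regions near 4930453N24Rik (1006 bp, 4.27, 2.71, 2.96 and 4.28) and Frem2 (1006 bp, 2.37, 3.41, 2.46 and 3.34). A further region near Grin2b, an NMDA receptor subunit gene, stood 1009 bp off (3.78, 3.04, 3.05 and 2.87), while another region at this gene was a member.

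On the side of detection, 1800 gene-end regions had a peak in 3 lists and so missed membership by 1 list. The missing list was cKO basal for 728, WT KCl for 623, WT basal for 225 and cKO KCl for 224. In the lists that held them, their median folds were 3.03, 3.09, 2.9 and 3.22, below the member medians given next. The WT KCl and cKO basal lists were the shortest, with 19847 and 19921 peaks on these chromosomes, against 33328 in WT basal and 24947 in cKO KCl. The part of list length in these counts was not tested.

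Member peaks were among the taller peaks of each list. Their median fold was 4.08, 3.71, 3.62 and 4.23, where all peaks of those lists had medians of 2.82, 3.03, 2.88 and 3.08. The median member stood at the 88.7th, 81.4th, 81.6th and 84.7th percentile of its list. Members took 17.5, 29.2, 29.1 and 23.2% of the peaks of each list and 74.1, 78.6, 79.1 and 76.0% of the top 10% of peaks by fold. Regions found in every list but away from gene ends had lower medians in all 4 lists, 3.79, 3.44, 3.35 and 3.88 for the 1085 intragenic ones and 3.68, 3.36, 3.26 and 3.85 for the 620 intergenic ones. The plot of folds by list shows that the quartile ranges of the 3 classes overlap.

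**Figure D2:**
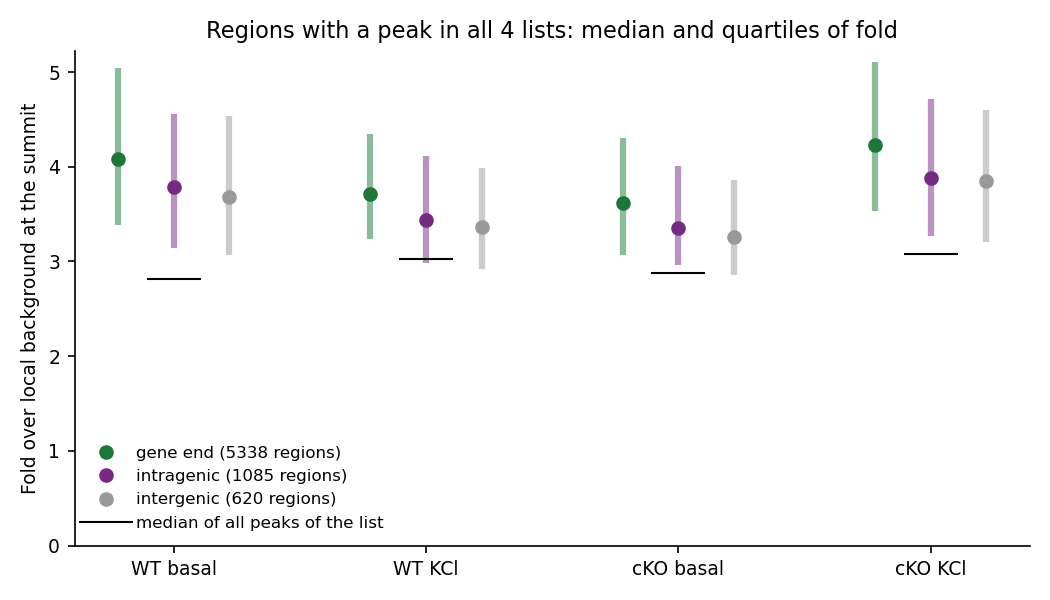
Median (dot) and quartiles (bar) of the fold over local background (y axis, from 0) in each list (x axis) for regions with a peak in all 4 lists, split by position. Gene ends have the highest median in each list, 3.62 to 4.23, and black lines mark the median of all peaks.

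The fragment pileup at member summits had medians of 48, 38, 42 and 45 fragments, over a most frequent local background of 9.3, 8.23, 9.47 and 8.36. The lowest pileups were 21 to 24 fragments in the 4 lists and the highest 107 to 127. The fold of a member carries the counting error of such a number. The settings used to call peaks are not given, so reading a unit of pileup as a fragment is an assumption. The counting intervals of pileups given below rest on it. The number of reads behind each list after filtering is not in the files.

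The tallest members, ranked by their lowest fold over the lists, were led by the shared start of Erp44 and Invs (chr4:48279212-48280067), with folds of 9.23, 7.8, 8.31 and 9.48. Invs encodes inversin, a protein of the primary cilium. Tmem267 followed (7.89, 7.39, 8.01 and 7.29), then the shared start of Cggbp1, a CGG-repeat binding protein gene, and Zfp654 (9.46, 7.09, 8.51 and 10.02). All 4 lists placed these 3 members at or above the 97.7th percentile of the members. Tpp2, a cytosolic peptidase gene, had 10.30, 8.01, 6.88 and 9.9. Mplkip with Sugct, Zfp869, Hmgcs1 (HMG-CoA synthase of the cholesterol pathway), Hnrnpr (an RNA-binding protein), Stt3a (a catalytic subunit of oligosaccharyltransferase) and Gpr137c with Txndc16 completed the first 10, with lowest folds between 6.42 and 6.71.

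At the other end, the lowest folds belonged to Stk40 (2.02, 2.73, 2.8 and 2.81), Trib1 (2.03, 2.35, 2.2 and 2.6), Mknk2 (2.71, 2.06, 2.64 and 2.8), Gys1 and Cd244a, the last 2 with a lowest fold of 2.07. Stk40 and Trib1 encode pseudokinases, Mknk2 a kinase of the translation factor eIF4E, and Gys1 muscle glycogen synthase. Their lowest pileups were 30 to 55 fragments over a raised local background, 26.04 fragments at the Cd244a summit in WT basal. Stk40 had the fewest fragments of the 5 in every list other than cKO basal, and Cd244a had more than the median member in all 4 lists.

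Members were a median of 712 bp wide (quartiles 541 and 915, range 243 to 2792), against 625 bp for intragenic and 525 bp for intergenic regions found in every list. The widest lay at Tsc22d2 (2792 bp), Rims2, a presynaptic active zone gene (2166 bp), Kmt2c, a histone methyltransferase gene (2077 bp), Lcorl (2072 bp) and Rev3l, the catalytic subunit gene of DNA polymerase zeta (2018 bp). In 4146 members (77.7%) each list had a single peak, while up to 2 peaks were merged within a list in 1142 (21.4%) and 3 in 50 (0.937%). A width is that of the merged region and can exceed that of any of its peaks, whose medians were 492, 436, 415 and 502 bp.

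The spread of the 4 summits of a member, the distance from the first to the last, had a median of 102 bp (quartiles 57 and 238), and 1110 members (20.8%, 19.7 to 21.9) had all summits within 50 bp. This share was 19.4% for intragenic and 24.7% for intergenic regions found in every list. Among the top 1335 members by lowest fold (3.9 or more) 35.5% were within 50 bp, against 8.61% among the bottom 1335 (2.89 or less), so spread was smaller where peaks were tall. The median spreads of these sets were 67 and 186 bp.

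At 4 members the summit fell on the same base in all lists. These were Eef1a1, the translation elongation factor gene (6.67, 5.48, 4.74 and 5.91, base 78481944 of chromosome 9), Gabarapl2, an autophagy gene (4.19, 4.14, 4.63 and 4.74), and the paired starts of Mkks with Slx4ip and of Chchd4 with Tmem43. Tmem160 came next with a spread of 1 bp. The largest spreads were at Tsc22d2 (1775 bp), Rims2 (1600 bp), Dlgap3 (1209 bp), Med12l (1181 bp) and Cul3 (1136 bp). At Rims2 the WT summits lay at 39199050 and 39199102 on chromosome 15 and the cKO summits at 39197502 and 39197988, but all 4 folds were close (3.23, 3.06, 3.22 and 3.4). At Cul3, a ubiquitin ligase scaffold gene, the WT KCl summit stood apart from the other 3 (folds 6.02, 3.36, 4.0 and 5.21).

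A member touched 1 gene in 4423 cases (82.9%), 2 genes in 904 (16.9%) and 3 in 11. Divergent pairs, in which 2 neighbouring genes are read away from each other, accounted for 373 members (6.99%). Another 212 members lay where opposite transcripts overlap at their starts. Both counts need the strand of each gene in the pair, and 1021 members had a gene whose strand was not given, so they may be low. Of 567 divergent pairs with starts at most 1 kb apart, 360 (63.5%) had a single member within 1 kb of both starts. Of the genes in such pairs 723 of 1127 (64.2%) had a member, against 4294 of the 15330 other genes with a known strand (28.0%). The rule counts a member for every gene with an end within 1 kb. A member near either start of a pair can therefore count for both genes, and its part in this gap was not tested. The starts of member pairs were a median of 108 bp apart (quartiles 53.8 and 234).

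Members at divergent pairs had somewhat higher median folds (4.41, 4.01, 3.82 and 4.6) than members at a single gene (4.07, 3.68, 3.6 and 4.19) in all 4 lists. After Erp44 with Invs, whose starts are 72 bp apart, the tallest were Sugct with Mplkip (618 bp; 8.26, 6.71, 7.07 and 8.06) and Txndc16 with Gpr137c (134 bp; 6.54, 6.42, 6.64 and 8.84). Mdh1, the cytosolic malate dehydrogenase gene, with the cilium gene Wdpcp (35 bp apart) had 9.98, 6.06, 6.69 and 8.79. Thap2 with Zfc3h1 (364 bp apart) had 7.56, 6.38, 6.36 and 5.83.

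By gene, 6082 of 20665 protein-coding genes (29.4%) had a constitutive open end, and 12090 (58.5%) had a gene-end peak in at least 1 list. Genes with a member were longer, with a median of 29.0 kb against 17.5 kb for all protein-coding genes. The share by chromosome ran from 21.4% on chromosome 7 to 37.3% on chromosome 12. Without olfactory and vomeronasal receptor genes it was 31.6% over all chromosomes and 26.8 to 37.3% by chromosome. At 181 genes 2 or more members were counted, and 65 genes had a member at both ends.

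Gene lists for 28 classes were set beside the 29.4% of all genes, without a test of any list, and 16 lists lay above that share. The genes of a list can share a member where they are neighbours. The highest shares were those of aminoacyl-tRNA synthetases (22 of 35, 62.9%, interval 44.9 to 78.5), chromatin regulators outside the BAF complex (24 of 40, 60.0%), BAF subunits (17 of 30, 56.7%), the spliceosome (31 of 56, 55.4%), the proteasome (21 of 38, 55.3%), DNA repair (24 of 45, 53.3%) and RNA polymerase II with Mediator (35 of 70, 50.0%). Cytosolic ribosomal proteins (35 of 80, 43.8%), respiratory complexes I to III (19 of 48, 39.6%), mitochondrial ribosomal proteins (29 of 78, 37.2%) and C2H2 zinc finger proteins (129 of 360, 35.8%) were closer to the share of all genes. This order depended in part on the cKO basal peak list. Without it, the respiratory and zinc finger shares rose beyond their intervals, with values given at the end. The share of cytosolic ribosomal proteins was then 52.5%, beside 54.3% for RNA polymerase II with Mediator and 63.3% for BAF subunits. The plot of gene lists shows their intervals.

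**Figure D3:**
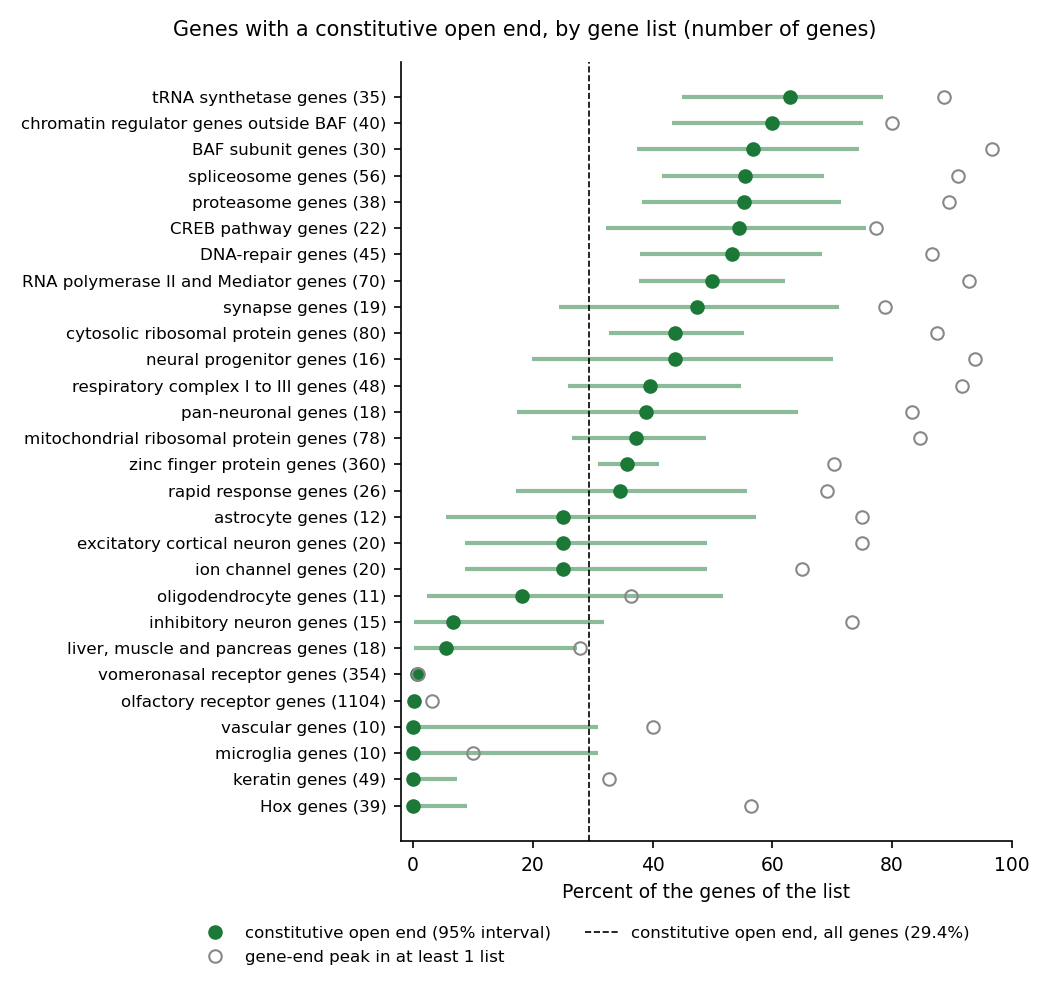
Percent of the genes of each list (x axis; number of genes in parentheses) with a constitutive open end (green, bar: exact 95% interval) and with a gene-end peak in at least 1 list (open circle). Housekeeping lists lie right of the dashed 29.4% of all genes, some with intervals that include it. CREB (54.5%), synapse (47.4%), neural progenitor (43.8%) and pan-neuronal genes (38.9%) also lie right of it. Receptor, keratin, Hox, microglia and vascular lists lie near 0, with intervals up to 30.8% for microglia and vascular genes.

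Among genes of the protein synthesis machinery, Lars2 and Lars had the tallest members of the synthetases (lowest folds 5.93 and 5.25), followed by Tars (4.55) and Wars (4.49). The Lars2 member is the far-end one named above and does not lie at the start of that gene. Rpl34 (6.93, 5.56, 4.71 and 5.01), Rpl37 (7.15, 4.55, 6.21 and 7.22), Rps6 (4.95, 4.66, 4.36 and 6.06) and Rpl15 (7.67, 4.33, 6.02 and 7.05) led the cytosolic ribosomal proteins. For the mitochondrial ribosome Mrpl18 led at the start it shares with the chaperonin gene Tcp1 (8.5, 5.96, 6.59 and 8.12), followed by Mrps14 (6.8, 6.82, 5.63 and 7.59). Psma5 led the proteasome (7.67, 5.13, 5.54 and 6.63) and Ndufv2 the respiratory complexes (6.55, 6.15, 5.35 and 6.21). A higher share of genes with an open end did not go with taller members in the ribosomal lists. The 35 cytosolic ribosomal members had median folds of 3.59, 3.68, 3.47 and 4.07, below the medians of all members, whereas those of the mitochondrial ribosome had 4.7, 3.95, 3.91 and 4.85. The synthetases, with the highest share of any list, also had medians above those of all members (4.66, 4.38, 4.01 and 4.49). A relation between share and fold over all lists was not tested.

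Med23, a Mediator subunit gene (6.9, 5.96, 4.77 and 7.16), and Rad23b, a nucleotide excision repair gene (5.86, 5.71, 4.84 and 6.45), led the polymerase and repair lists. Among zinc finger genes Zfp654 and Zfp869, named above, were followed by Zfp143 (6.73, 5.46, 6.55 and 6.52), which encodes the factor that binds the ZNF143 motif.

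Few or no members were found for the receptor, keratin and Hox lists and the list of liver, muscle and pancreas genes. Whether these genes were expressed in the cultures was not tested. Of 1104 olfactory receptor genes, 1 had a member (0.0906%), Olfr1344 (3.38, 2.92, 3.72 and 3.21), and the share was 0.181% without the WT KCl list and 0.272% without the cKO basal list. Of 354 vomeronasal receptor genes 2 had one (0.565%), Vmn2r29 (6.12, 5.41, 4.87 and 4.81) and Vmn1r4, whose member is shared with Nt5c3. None of 49 keratin genes (0%, interval up to 7.25) and none of 39 Hox genes (0%, up to 9.03) had a member. However, 16 keratin genes (32.7%) and 22 Hox genes (56.4%) had a gene-end peak in at least 1 list, against 58.5% of all genes. Without the WT KCl list the share of Hox genes with a member was 2.56%. Of 18 genes of liver, muscle or pancreas 1 had a member, Actn3, which shares it with Zdhhc24.

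Of 26 rapid response genes 9 had a member (34.6%, interval 17.2 to 55.7), a share near that of all genes. Jun had folds of 3.92, 3.54, 3.95 and 3.79 and Ier5 4.14, 3.94, 4.07 and 3.4, at percentiles among the members of 44.8, 40.8, 64.8 and 34.3 for Jun and 51.8, 60.2, 68.4 and 20 for Ier5. Klf10, a zinc finger repressor gene, had 3.85, 3.27, 3.73 and 4.98, in the same order as the medians of all members within each genotype (4.08 and 3.71 in WT, 3.62 and 4.23 in cKO). Btg2 had 3.32, 4.0, 3.06 and 4.17 and stood higher among the members in both KCl lists (percentiles 23.1, 61.6, 24.4 and 47.4), with pileups of 52, 56, 44 and 59 fragments.

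Fos had 3.5, 2.88, 2.19 and 2.89, at percentiles of 30.1, 10.1, 0.1 and 5.4, and the cKO basal list also had the lowest median over all members. Fosl2, another AP-1 gene, had 3.98, 2.97, 2.78 and 3.73. Dusp1 had 3.01, 2.87, 2.76 and 2.45, Jund 3.08, 2.8, 3.17 and 3.16, and Egr1, a zinc finger factor gene, 3.21, 3.25, 3.24 and 3.4. The members of this list were below the median member in each list, at median percentiles of 30.1, 26.7, 29.8 and 20 among members. Of the 17 others, Arc and Ier2 missed WT KCl alone, Atf3 missed cKO basal alone, Klf4 missed cKO KCl alone and Maff missed WT basal alone, and Npas4, Nr4a1, Fosb, Egr2 and Srf had no gene-end peak in any list.

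Of 22 genes of CREB signalling, which carries calcium and cAMP signals to the nucleus, 12 had a member (54.5%, interval 32.2 to 75.6). The factor genes were Creb1 (8.04, 5.88, 5.67 and 6.69), Atf2 (5.32, 4.76, 4.68 and 4.81), Crem (6.26, 4.44, 5.94 and 5.44) and Atf4 (4.34, 4.06, 3.87 and 4.57). Creb1 stood at the 94.7th percentile of members or above in all 4 lists, and its 4 summits lay within 4 bp. Among kinases and phosphatases, Prkaca, the catalytic subunit of protein kinase A, had 7.0, 5.41, 5.54 and 6.33, Prkacb 4.72, 4.11, 3.63 and 6.52, the calcineurin subunit Ppp3ca 6.01, 4.47, 5.57 and 5.3, and Ppp3cb 4.86, 4.84, 3.06 and 5.13.

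Among coactivators Crtc2 (5.39, 5.92, 3.98 and 5.06) and Crtc1 (3.6, 3.43, 3.25 and 4.35) carry calcium signals to CREB, and the acetyltransferases Crebbp (3.8, 4.13, 3.24 and 4.17) and Ep300 (4.47, 3.16, 3.69 and 3.03) act beside it. Among the members Crebbp stood higher in the KCl list of each genotype (percentiles 41.1, 67.6, 31.9 and 47.4) and Ep300 lower (61.7, 22.4, 53.8 and 8.3), with pileups of 31 to 48 fragments in all lists. At the median percentile of members this list stood at 75.6, 77.8, 63.6 and 74.8, above the median member in each list. The 10 genes without a member included Atf1, Creb3, Crtc3 and Mef2d, each absent from a single list, and Camk2a, Camk4, Mef2a, Mef2c and Prkar1a, which had no gene-end peak in any list.

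Of 30 BAF subunit genes 17 had a member, and 29 had a gene-end peak in at least 1 list. Both ATPase genes did, Smarca4 (4.89, 5.32, 5.21 and 5.62, pileups of 53, 51, 63 and 58) and Smarca2 (5.59, 4.05, 4.06 and 5.21). The Smarca4 peak lies at the start of the gene that the cKO deletes, and whether this site is within the deleted stretch is not given in the sources used here, so it does not check the genotype. Actl6a, the actin-like subunit of progenitor BAF, had the tallest member (8.44, 5.49, 6.07 and 6.16). Its neuronal counterpart Actl6b, which encodes BAF53b itself, had no peak in cKO KCl and so no member.

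The core subunits Smarcc1 (3.3, 3.9, 3.53 and 4.23), Smarcc2 (2.5, 2.55, 2.92 and 3.14), Smarcd1 (4.0, 2.43, 3.25 and 3.78) and Smarcd2 (3.67, 3.06, 3.71 and 3.76) were lower than the ATPase genes. Pbrm1, Arid2 and the accessory genes Bicra, Bicral, Bcl7a, Bcl7b, Bcl7c, Dpf1, Ss18 and Ss18l1 had lowest folds between 2.78 and 3.18. Genes without a member included Arid1a, found in WT basal only, Smarcb1, found in cKO KCl only, and Brd9 and Dpf3, at which each list had a gene-end peak although no single region held all 4. As a list, the BAF members ranked below the median member, at percentiles of 27.7, 39.0, 29.6 and 34.0. The plot of listed members shows the CREB pathway members reaching higher folds than those of the rapid response list.

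**Figure D4:**
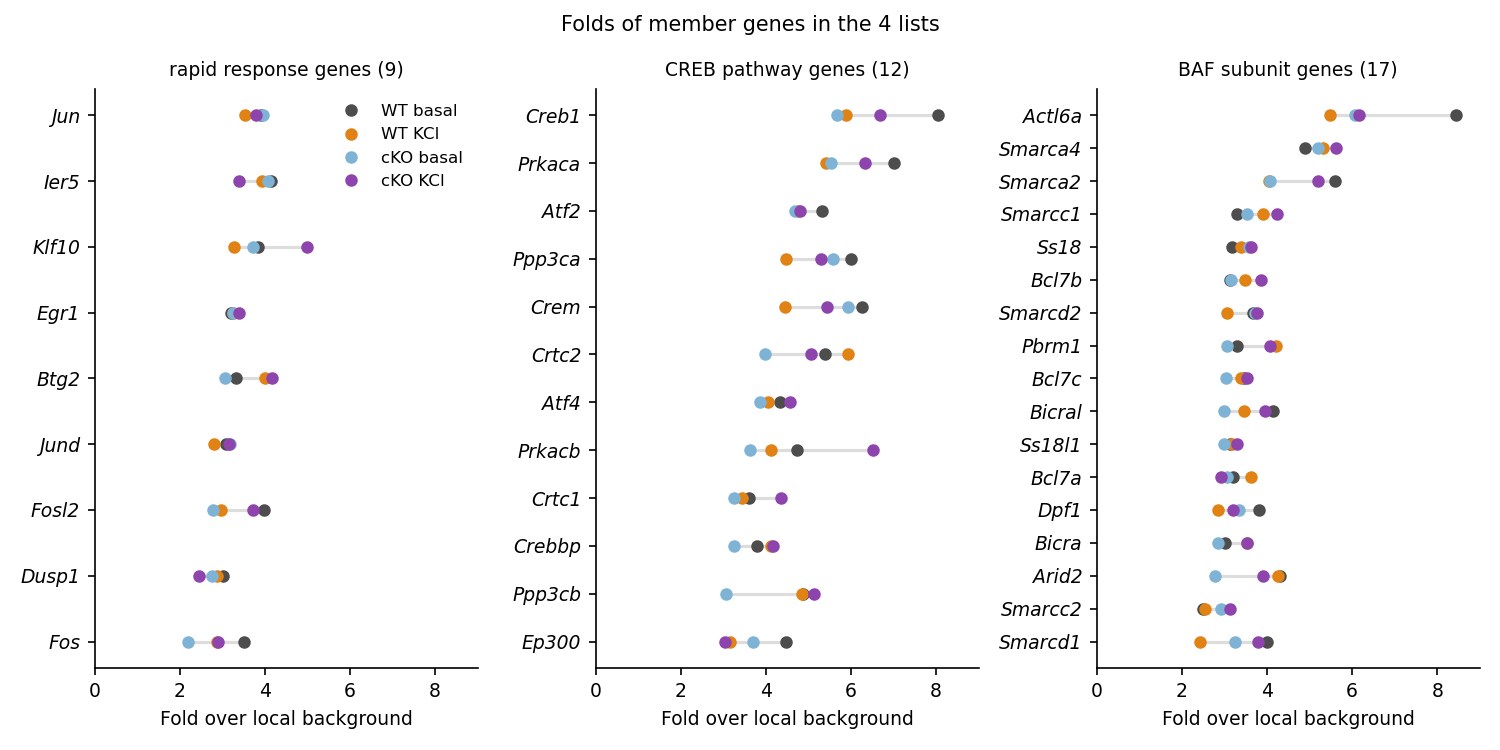
Fold over local background (x axis, from 0) of each member gene of 3 lists (y axis) in the 4 peak lists, 1 dot per peak list, sorted by the lowest fold. Rapid response members lie between 2.19 and 4.98, and Creb1, Prkaca and Actl6a have the highest single folds (8.04, 7.0 and 8.44).

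Neuronal marker genes had members at shares whose intervals include the 29.4% of all genes. Of 18 pan-neuronal genes 7 had a member (38.9%, interval 17.3 to 64.3), among them the synaptic vesicle gene Syt1 (6.22, 4.22, 4.3 and 6.52) and the dendritic gene Map2 (4.0, 4.78, 4.79 and 4.66), with Ncam1, Elavl4, Nefl and Nefm at lowest folds of 2.67 to 2.98. Rbfox3, Mapt and Gap43 had no gene-end peak in any list. Tubb3 had a gene-end peak in each list without a shared region. Of 20 excitatory cortical neuron genes 5 had one (25%, interval 8.66 to 49.1), among them Zbtb18, a repressor gene of pyramidal neuron development (7.33, 5.93, 6.36 and 7.03), with Nfib, Neurod6 and Foxp1 lower.

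Of 15 inhibitory neuron genes Sp9 alone had a member (6.67%; 3.72, 3.42, 2.37 and 4.49). The share was 0% with a −log10 q of at least 3 and 13.3% without the WT KCl or without the cKO basal list. Among these genes Gad2, Slc32a1, Lhx6 and Vip had no gene-end peak in any list. Synapse genes had 9 of 19, including Homer1, a postsynaptic scaffold gene (4.94, 4.31, 5.16 and 4.52), Pclo and Rims1. Ion channel genes had 5 of 20, including Cacnb4, Kcnma1, Scn8a and Kcnq3, which had the highest lowest fold of the list (4.28, 4.0, 3.68 and 4.41). Median percentiles among the members were 17.5, 34.5, 16.3 and 34.8 for synapse genes and 10.5, 51.3, 29.5 and 8.2 for channel genes. Of the 14 synapse and channel genes with a member, 6 had a lowest fold under 2.9 (Nlgn1, Grin2b, Nlgn2, Stx1a, Kcnma1 and Scn8a). Among all 5338 members the bottom 1335 had a lowest fold of 2.89 or less.

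Some marker genes of other cells that such a culture could hold had a member, at shares to be read beside the 29.4% of all genes. Neural progenitor genes had 7 of 16 (43.8%, interval 19.8 to 70.1), Gli3, Vim, Sox1, Hes1, Sox2, Sox9 and Notch2, with lowest folds between 2.78 and 3.85. Astrocyte genes had 3 of 12 (25%, interval 5.49 to 57.2), Slc1a2, Sox9 and Aldoc. Sox9 is also in the progenitor list, and the Aldoc member is shared with Pigs. Oligodendrocyte genes had 2 of 11 (18.2%, interval 2.28 to 51.8), Olig2 and Olig1. Both shares were under that of all genes, with intervals that include it. None of 10 microglia genes and none of 10 vascular genes had a member (0%, interval up to 30.8 each), and of the vascular genes Flt1, Kdr, Cdh5 and Pdgfrb had a gene-end peak in at least 1 list, against 1 of the microglia genes. An open start does not show that a gene is transcribed, and which cells gave these peaks was not tested.

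CpG content was higher at the promoters of members, with overlap. The CpG observed/expected ratio of member windows had a median of 0.83 (quartiles 0.7 and 0.95) against 0.6 in all windows and 0.38 in windows without a member, and the median GC content was 63.7, 56.7 and 53.0%. A ratio of 0.6 or more, called CpG-rich below, was found in 4204 of 4913 member windows (85.6%, 84.6 to 86.5), in 49.8% of all windows and in 3994 of 11544 windows without a member (34.6%). Read the other way, 68 of 3622 windows with a ratio under 0.2 had a member (1.88%), 6.62% of those between 0.2 and 0.4, 23.1% between 0.4 and 0.6, 43.1% between 0.6 and 0.8, 55.3% between 0.8 and 1, and 841 of 1385 at 1 or more (60.7%). The share with a member was thus higher in each bin than in the one before, while the median fold of the members was nearly flat, from 3.89 to 4.18 in WT basal and from 3.43 to 3.66 in cKO basal.

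**Figure D5:**
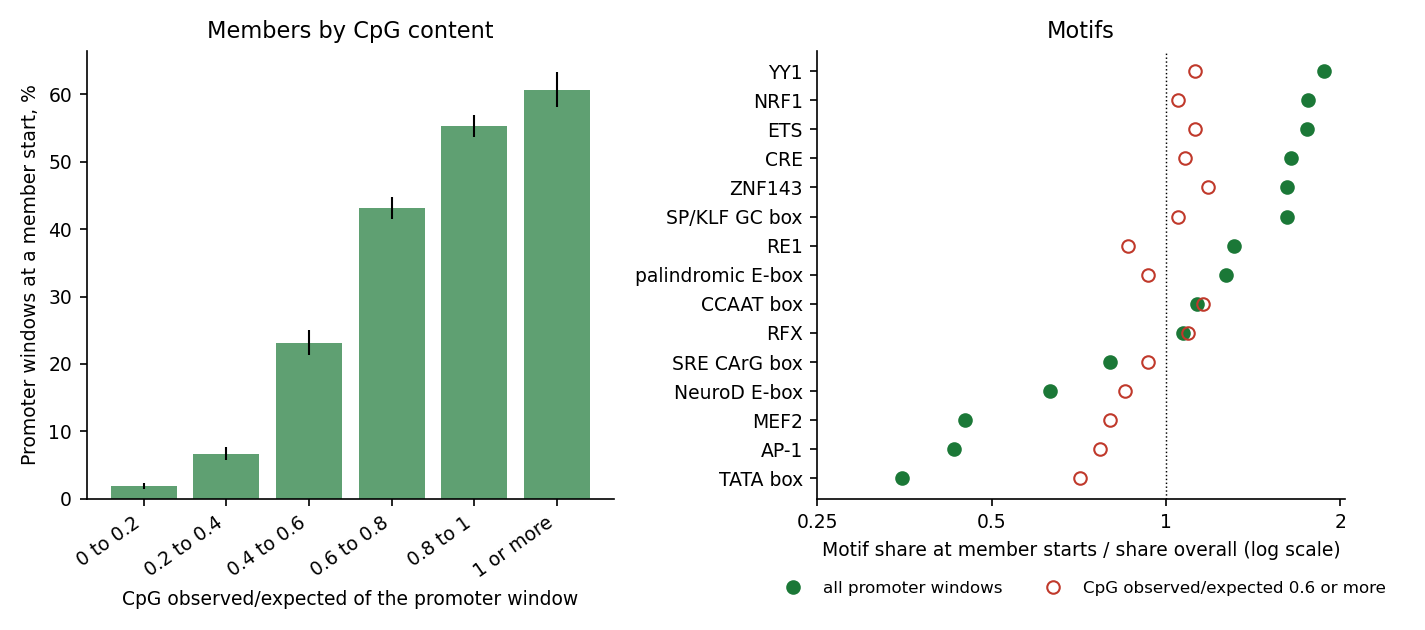
Left, percent of promoter windows at a member start (y axis, from 0, bars with exact 95% intervals) by CpG observed/expected of the window (x axis). Right, share of member windows with each motif over the share of all windows (x axis, log scale), for all windows (filled) and CpG-rich ones (open). The left bars run from 1.88 to 60.7%, and the open circles lie closer to 1 than most of the filled ones.

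Members whose promoter window had a ratio under 0.2 numbered 68. Rbm25, a splicing regulator gene, led them with a ratio of 0.0 (6.12, 5.85, 6.59 and 6.09), followed by Gm20594 (5.83, 6.61, 6.88 and 7.05), Duxf3 (6.77, 5.96, 6.67 and 5.77) and Ttc41, which shares its member with the chaperone gene Hsp90b1. Sptbn1, a spectrin gene (5.97, 4.98, 5.38 and 5.76), and Luc7l2, a splicing gene (6.51, 6.16, 5.06 and 4.79), came next. These 6 are the tallest of the 68, whose median folds were 4.07, 3.61, 3.59 and 4.18. A RefSeq start can differ from the start used in neurons, which was not tested.

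Several motifs were more frequent at member starts than in all windows. An NRF1 match was in 16.0% of member windows (95% interval up to 17.1) against 9.08% of all windows, an ETS match in 9.53% against 5.44%, a GC box in 25.9% against 16.0%, a YY1 match (AAGATGGCG) in 3.58% against 1.92%, and a CRE in 3.93% against 2.4%. A CCAAT box was in 44.2% against 39.1%, a palindromic E-box in 10.1% against 7.97%, a ZNF143 match in 0.936% against 0.577%, an RE1 match (GGACAGCGC) in 0.773% against 0.589% and an RFX match (GTTGCCATG) in 0.672% against 0.626%. RFX and RE1 were near the share of all windows.

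The other 5 were less frequent. A TATA box was in 4.76% of member windows against 13.5% of all, an AP-1 match (TGANTCA), the site of Fos and Jun dimers, in 3.09% against 7.12%, a NeuroD E-box in 2.79% against 4.39%, the CArG box of Srf in 1.16% against 1.45%, and a MEF2 match (CTATTTATA) in 0.204% against 0.45%. A MEF2 match always holds a TATA box match on the other strand, and neighbouring matches can share bases.

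Within CpG-rich windows most of these gaps were smaller. NRF1 was in 18% of member and 17.1% of all CpG-rich windows, the GC box in 28.2 and 26.7%, the CRE in 4.23 and 3.93%, ETS in 10.3 and 9.21%, and the palindromic E-box in 10.7 and 11.5%, now lower in members. For the CCAAT box the gap was not smaller, with 43.9 and 37.7% (ratio 1.16 against 1.13 in all windows). The TATA box (4.12 and 5.82%, ratio 0.71 against 0.35) and AP-1 (2.64 and 3.44%, ratio 0.77 against 0.43) were still less frequent in members, by less. Member windows are part of all windows in each of these pairs, so the shares are not independent.

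The median position of matches in member windows differed between motifs, and positions in other windows were not compared. The median position was -37 for ETS, -52 for the CRE, -63 for NRF1, -68 for the GC box, -83 for the CCAAT box and 11 for YY1, which thus lay after the start more often than before it. Members with a CCAAT box had higher median folds than members without, at 4.37, 3.92, 3.82 and 4.56 against 3.93, 3.63, 3.51 and 4.08. For the CRE the order was the reverse in all 4 lists (3.93, 3.68, 3.45 and 4.21 with, against 4.14, 3.78, 3.63 and 4.28 without). NRF1, GC box and ETS matches went with differences in the median fold of at most 0.07 in any list.

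To compare conditions without a common scale, each member was placed by its percentile among the 5338 members of a list, which hold the same regions in each list. The median member moved over 29.7 percentile points between its lowest and highest list. The range was at most 10 points for 502 members (9.4%) and at least 50 points for 773 (14.5%). Both KCl lists placed a member higher than either basal list in 854 cases (16.0%) and lower than either in 916 (17.2%). Both cKO lists were above either WT list in 896 (16.8%) and below in 845 (15.8%). Percentiles among the same members are centred alike in every list, so these counts cannot show a shift of all members up or down. The shares were close for both comparisons and in both directions. Lists can also take such an order without a difference between conditions, and how often they did was not tested.

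The members with the largest rank difference toward KCl were Fgfr1, a growth factor receptor gene (3.32, 5.05, 2.89 and 4.96), Tmx3 (3.01, 4.98, 2.96 and 4.7), the small GTPase gene Rab8b (3.11, 4.55, 3.06 and 5.34), Cdc27, a subunit gene of the anaphase-promoting complex (3.5, 5.09, 2.67 and 4.7), and Dop1a (3.11, 3.9, 2.48 and 5.09). At Fgfr1 the pileups were 47, 64, 40 and 58 fragments, with exact 95% Poisson intervals of 34.5 to 62.5, 49.3 to 81.7, 28.6 to 54.5 and 44.0 to 75.0. These intervals overlap within each genotype.

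In the other direction stood Dguok, the mitochondrial deoxyguanosine kinase gene (6.47, 2.98, 4.82 and 3.47), the region of Noa1 and the polymerase gene Polr2b (5.81, 3.24, 4.5 and 2.94), S100pbp with Yars (4.56, 2.42, 4.17 and 3.15), Tbc1d19 (5.24, 2.92, 4.77 and 3.74) and Trappc3 (5.03, 3.23, 4.23 and 2.88). The Dguok pileups were 82 (65.2 to 101.8) and 35 (24.4 to 48.7) fragments in WT, with intervals apart, and 60 (45.8 to 77.2) and 45 (32.8 to 60.2) in cKO, with intervals that overlap. Pileups are not on a common scale, as the median member had 48 and 38 fragments in WT and 42 and 45 in cKO. The intervals cover counting error only, and Dguok was picked by this difference, so they do not test a change or a difference between genotypes.

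For genotype the largest differences toward cKO were at C2cd5 (2.42, 2.99, 3.75 and 5.71), Zfp712 (3.79, 2.6, 4.58 and 5.34), the chromatin regulator gene Kmt2e (3.58, 2.89, 4.79 and 5.04), Zbtb41 (2.53, 3.68, 4.11 and 5.77) and D630045J12Rik (3.64, 2.68, 4.02 and 5.08). Toward WT they were at Prdx3, a mitochondrial peroxiredoxin gene (4.56, 4.55, 2.77 and 2.89), Pnrc2 (4.5, 4.44, 2.77 and 2.89), the ribosomal protein gene Rps13 (4.76, 4.22, 2.77 and 2.99), Capn7 (4.76, 6.06, 2.48 and 4.38) and Nf1, a Ras GTPase-activating protein gene (4.48, 3.97, 2.74 and 2.98). The Prdx3 pileups were 46 (33.7 to 61.4), 41 (29.4 to 55.6), 28 (18.6 to 40.5) and 26 (17.0 to 38.1) fragments, so the intervals of the WT and cKO lists overlap. These members are the extremes of 5338 and were picked by the differences given, which have no replicate check.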

How the data were processed

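Nucleosome-free ATAC-seq peaks of 8 libraries were taken from 4 headerless narrowPeak lists, 1 for each condition. Per the submitters' processing notes, Bowtie2 and MACS2 were used with GRCm38 (mm10). Their versions and settings, duplicate removal, the Tn5 shift, the length range of fragments and the way in which the 2 libraries of a condition were combined are not given in these sources. Each deposited peak carries a score, a fold over local background (a ratio), and the −log10 of its p-value and q-value, and the deposited distance of the summit from the peak's start gave summit positions. Genotype and treatment in a list's name gave its condition. Lists called with unequal sensitivity differ in length, which bears on which regions are found in all 4.

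Merging, distances and counts were computed with Python 3.11.15, pandas 2.3.3, numpy 2.4.6 and scipy 1.17.1, with figures from matplotlib 3.10.9, and the code was tested on simulated data. Gene ends came from the RefSeq table of GRCm38.p6, and strand and start from its promoter table. For each member and list the tallest peak was used. Pileups were solved from the deposited fold and p-value, with a pseudocount of 1, as whole numbers within 0.001 in −log10 p. Intervals are exact at 95%. Genes were named by a fixed rule: the 10 highest lowest folds, the 5 widest, the 5 smallest and 5 largest summit spreads, all members of the rapid response, CREB, BAF and marker lists and up to 4 of other lists, the 5 tallest divergent pairs, the 5 largest rank differences each way, the regions next to the 1 kb limit, and the top member per motif. Some genes that the rule selects are not reported here. The 5 lowest folds, far-end members and low-CpG members named were chosen after their values were seen. The members and gene lists were chosen with earlier results of these data known. Alternatives were another overlap, window, q threshold, equal list lengths, sex chromosomes, and leaving out each list.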

Additional observations from a re-analysis of the deposited data

Results flagged for a closer look

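The difference between KCl and basal in the median fold of members went in opposite directions in the 2 genotypes. It was -0.37 in WT and 0.61 in cKO. Each value compares 2 lists whose folds rest on different fragment counts, and the difference between genotypes was not tested. The pattern was not particular to gene ends. From basal to KCl, the median of intragenic regions found in every list went from 3.79 to 3.44 in WT and from 3.35 to 3.88 in cKO. That of intergenic ones went from 3.68 to 3.36 and from 3.26 to 3.85. The median of all peaks was higher in KCl in both genotypes (2.82 and 3.03 in WT, 2.88 and 3.08 in cKO).

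Peaks on the sex chromosomes were outside the description above. By the same rule 108 constitutive gene-end regions were found there, 108 on X and 0 on Y, at 121 of 966 X genes (12.5%), with median folds of 4.47, 3.58, 3.53 and 4.28 in the list order used above.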

How the results depend on the processing

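No paired analysis was possible because each condition has 1 list without replicates. Over the alternatives the number of members ran from 4996 to 6064 (main 5338) and that of genes from 5722 to 6821 (main 6082), each within 1.5 times. The share of CpG-rich member windows was 89.6% when only windows overlapping the member were counted. The share of members at gene starts was 99.0% with a 2500 bp window and 99.0 to 99.4% when each list was left out in turn. The share with summits within 50 bp was 22% with a −log10 q of at least 3. It was 29.2 to 32.6% with each list left out, where the spread is taken over 3 summits in place of 4. Of the remaining values, 84 that answer a comparison and 440 for single lists or motifs moved by less than their 95% interval or 1.5 times, and 5 moved by more: inhibitory neuron genes (0% with that q threshold), respiratory complexes (58.3%) and zinc finger genes (41.7%) without cKO basal, and the GC box (27.2%) and TATA box (4.12%) in windows overlapping the member. Depth limits single members: with a median of 38 to 48 fragments at a summit, the counting intervals of a member can overlap between lists, as at Fgfr1 and Prdx3, and the libraries of a condition cannot be compared.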
